A study of Mus musculus with 6 samples.

Results

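A set of 32 genes for the uptake, storage and glycerolipid synthesis of fatty acids was examined in mouse CD8+ T cells, the cytotoxic lymphocytes. The genes were chosen by function, with earlier results of these data known. Each was located among the regions of an ATAC-seq count matrix of 24605 regions. In ATAC-seq the Tn5 transposase cuts open DNA, and the number of reads in a region stands for its accessibility. A region belonged to a gene's end when it lay within 1 kb of either end of the gene span in RefSeq (mm10). Where a gene had several such regions, the one with the highest mean count stood for it. By this rule 22 of the 32 genes had a gene-end region, 1 for each gene, and all 22 passed the filter on low counts. The other 10 had none. A further 23 regions lay deeper inside 13 of the 32 genes.

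The series compared 3 libraries of cells treated with palmitate, a common saturated fatty acid of the diet, at 100 µM with 3 control libraries. Both groups were wild-type CD8+ T cells from pancreas, spleen and lymph nodes, kept for 48 h in T cell medium, and 50000 sorted cells entered each library. The treatment characteristic of the labels separates the groups, although the protocol text printed with the control libraries names palmitate as well. Strain, sex and age of the mice were not given in the sources used here, nor whether replicates came from separate animals or cultures. The p-values therefore rest on library-to-library spread alone, and that spread could be technical.

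Fatty acids enter cells with the help of carriers such as CD36 and the fatty acid transport proteins, and binding proteins ferry them through the cytosol. Acyl-CoA synthetases activate them by joining them to coenzyme A. Acyltransferases then attach the acyl groups to a glycerol backbone, and lipin phosphatases turn phosphatidate into diacylglycerol. From there one branch makes phosphatidylcholine and other membrane lipids, while another makes triglyceride, which is kept in lipid droplets until lipases release the fatty acids again. Storage of palmitate as triglyceride is known to limit its toxicity in many cell types.

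The libraries held 2219136 to 3089230 counts in regions, and the first principal component (52.8% of the variance) separated the groups, with control 2 nearest to the palmitate libraries. The markers of the labelled cell type were open. All 5 pan-T-cell markers had a gene-end region, with summed levels of 194 to 215 CPM in control and 190 to 214 CPM in palmitate libraries, and so did both CD8 markers (101 to 112 CPM and 94.8 to 135 CPM). CPM are counts scaled to library size, here with TMM factors, which assume that most regions do not change. No region lay at the end of any of the 4 B cell, 2 NK cell or 4 endothelial markers. Of 3 CD4 T cell markers 1 had a region (Zbtb7b, 34.9 to 51.4 CPM in control and 46.5 to 73.4 CPM in palmitate), and Cd4 and Foxp3 had none. Of 5 macrophage and monocyte markers 1 had a region (Itgam, 5.32 to 7.14 CPM and 9.85 to 13 CPM), and Csf1r, Adgre1, Lyz2 and Cd68 had none. Zbtb7b and Itgam were higher in palmitate libraries (log2 fold change 0.48 ± 0.14 SE, adjusted p = 0.0121, and 0.91 ± 0.28, adjusted p = 0.0151). Their part in the results was not tested. Of 5 adipocyte markers only Plin1 had a region (5.1 to 6.99 CPM in control and 2.04 to 6.31 CPM in palmitate, not past the test), and Adipoq, Lep, Cidec and Pparg had none. Of 6 pancreatic markers only Cela1 had one, at 35.4 to 44.4 CPM and 28.9 to 42.6 CPM, also not past the test.

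The 10 genes without a region at an end came from every role but the phosphatidylcholine branch and the lipases. Among the carriers they were Cd36, the scavenger receptor that takes up fatty acids, the transport proteins Slc27a1 and Slc27a2, and Vldlr, a lipoprotein receptor. Among the synthetases they were Acsl5 and Acsl6. Gpam, the mitochondrial glycerol-3-phosphate acyltransferase, Agpat3, Lpin1 and the droplet coat gene Plin2 completed the 10. Of these, Cd36, Slc27a2, Vldlr, Acsl6 and Plin2 also had no region inside the gene. The authors' own peak lists, which also hold peaks that did not enter the matrix, had a peak within 1 kb of an end of Slc27a2 in 1 control and 1 palmitate list and of Slc27a1 in 1 control list. They had none there for the other 8. A missing region says that no peak entered the matrix at this depth, and not that the DNA was closed.

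Promoter sequence was read for 27 of the 32 genes from RefSeq windows (GRCm38.p6, the assembly of mm10), each the 250 bases before the most upstream annotated start. No window was found for Fabp4, Fabp5, Gpat4, Dgat1 and Dgat2. The 17 windows of genes with a gene-end region had a median GC content of 67.6%, and the 10 windows of genes without one had 56%. Over all 17492 protein-coding genes with a window, the corresponding medians were 60.4% and 49.6%. The GC box GGGCGG, the letters recognised by Sp and KLF factors, stood on either strand in 15 of the 17 windows and in 3 of the 10. Over all genes its share was 62% with a gene-end region, 25.6% without and 42.7% in all. The letters AGGTCA, a core motif of nuclear receptors, showed the opposite split, in 0 of the 17 and in 5 of the 10 (Acsl6, Cd36, Lpin1, Plin2 and Slc27a2), against 9.76%, 15% and 12.5% of all genes. These are matches of letters on both strands and not sites shown to be bound. The split is by gene-end region and not by whether the window itself was open. The gene-end regions of Lipe, Agpat1 and Plin3 lay 9725, 1457 and 431 bp from the nearest annotated start. Slc27a1 and Gpam, among the 10, had an inside region at an annotated start. The annotated starts of Cd36 (chr5:17835896) and Lpin1 (chr12:16610966) lie far inside spans that end at 17888959 and 16653903. A region at either start would not have counted as a gene end. Cd36 had no region inside, and the nearest of Lpin1 lay 4804 bp from its start.

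Windows are shown for 3 genes with an open start and for 2 without a region (Slc27a2 and Acsl6). The 3 are Acsl1 and Lpin2, called higher with palmitate, and Pnpla2, not called. All 5 windows hold a GC box, and the latter 2 also hold AGGTCA letters. Capitals mark matches on either strand of the GC box, of AGGTCA, of the NF-Y motif CCAAT, of the E-box and of the AP-1 motif. All 5 read 5′ to 3′ along the plus strand, which is the strand of each gene. They lie at chr8:46470787-46471036 (Acsl1), chr17:71183282-71183531 (Lpin2), chr7:141454938-141455187 (Pnpla2), chr2:126552774-126553023 (Slc27a2) and chr11:54303574-54303823 (Acsl6).
Acsl1: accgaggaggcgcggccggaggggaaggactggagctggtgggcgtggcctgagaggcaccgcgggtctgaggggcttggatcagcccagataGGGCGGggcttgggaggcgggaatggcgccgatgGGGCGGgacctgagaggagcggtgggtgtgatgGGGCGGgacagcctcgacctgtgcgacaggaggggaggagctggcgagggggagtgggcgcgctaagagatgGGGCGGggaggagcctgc
Lpin2: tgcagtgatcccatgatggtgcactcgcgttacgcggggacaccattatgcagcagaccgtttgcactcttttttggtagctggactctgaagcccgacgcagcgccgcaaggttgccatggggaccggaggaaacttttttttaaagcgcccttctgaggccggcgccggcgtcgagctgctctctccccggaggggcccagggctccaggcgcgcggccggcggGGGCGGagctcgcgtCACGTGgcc
Pnpla2: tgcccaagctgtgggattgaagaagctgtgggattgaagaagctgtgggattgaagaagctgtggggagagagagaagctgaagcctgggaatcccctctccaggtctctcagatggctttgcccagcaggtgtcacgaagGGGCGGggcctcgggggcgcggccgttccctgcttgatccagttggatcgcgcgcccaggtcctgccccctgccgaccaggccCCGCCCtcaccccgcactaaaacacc
Slc27a2: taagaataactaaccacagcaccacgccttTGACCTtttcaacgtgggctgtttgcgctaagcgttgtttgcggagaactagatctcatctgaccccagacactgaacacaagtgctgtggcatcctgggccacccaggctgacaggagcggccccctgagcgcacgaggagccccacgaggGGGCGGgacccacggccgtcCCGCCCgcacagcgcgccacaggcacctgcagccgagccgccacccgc
Acsl6: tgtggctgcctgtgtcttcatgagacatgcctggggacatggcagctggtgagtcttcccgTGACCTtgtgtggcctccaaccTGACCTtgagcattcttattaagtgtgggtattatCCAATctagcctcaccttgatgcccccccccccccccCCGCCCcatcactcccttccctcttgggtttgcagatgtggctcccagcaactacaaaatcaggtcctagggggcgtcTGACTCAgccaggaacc
The Acsl1 window held 4 GC boxes and no other motif of the search, and all 250 of its bases lay inside the measured region. The Lpin2 window, also wholly inside its region, held a GC box followed by the only E-box among those shown. The Acsl6 window held the AGGTCA motif 2 times, and the Slc27a2 window 1. The Acsl1 window overlaps the annotated noncoding gene Gm31050 and that of Acsl6 overlaps Gm51861.

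Of the remaining motifs, CCAAT was in 5 of the 17 and 6 of the 10 windows (36.5% of all genes) and the ETS core CCGGAA in 2 and 1 (15.2%). The E-box CACGTG was in 3 (Lipe, Lpin2 and Mgll) and 0 (6.65%). TGACGTCA (CRE) was in none (1.98%), TGACTCA in 0 and 1 (3.98%), and TCACNCCAC, a sterol element, in 1 (Pcyt1a) and 0 (0.983%). Matches of 1 motif could overlap each other.

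Palmitate libraries differed from control at 7 of the 22 gene ends. Accessibility rose at Agpat1, Acsl1, Gpat4, Chka, Lpgat1 and Lpin2 and fell at Fabp4, by the edgeR quasi-likelihood test with an adjusted p under 0.05 over all 24316 tested regions. The other 15 did not pass. Over all tested gene ends 25% were called higher and 2.47% lower, so 6 of 22 higher is near the background share. The median log2 fold change, palmitate minus control, was 0.16 over the 22 and 0.14 over all 9408 tested gene ends. Over all regions of the matrix 11.9% were called higher and 12.7% lower. The 3 libraries of each group did not overlap at 10 of the 22 ends with palmitate higher (35.5% of all gene ends) and at 1 with palmitate lower (6.66%). At an unadjusted p under 0.05 there were 11 of the 22 (50%), against 38.8% of all gene ends.

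**Figure D1:**
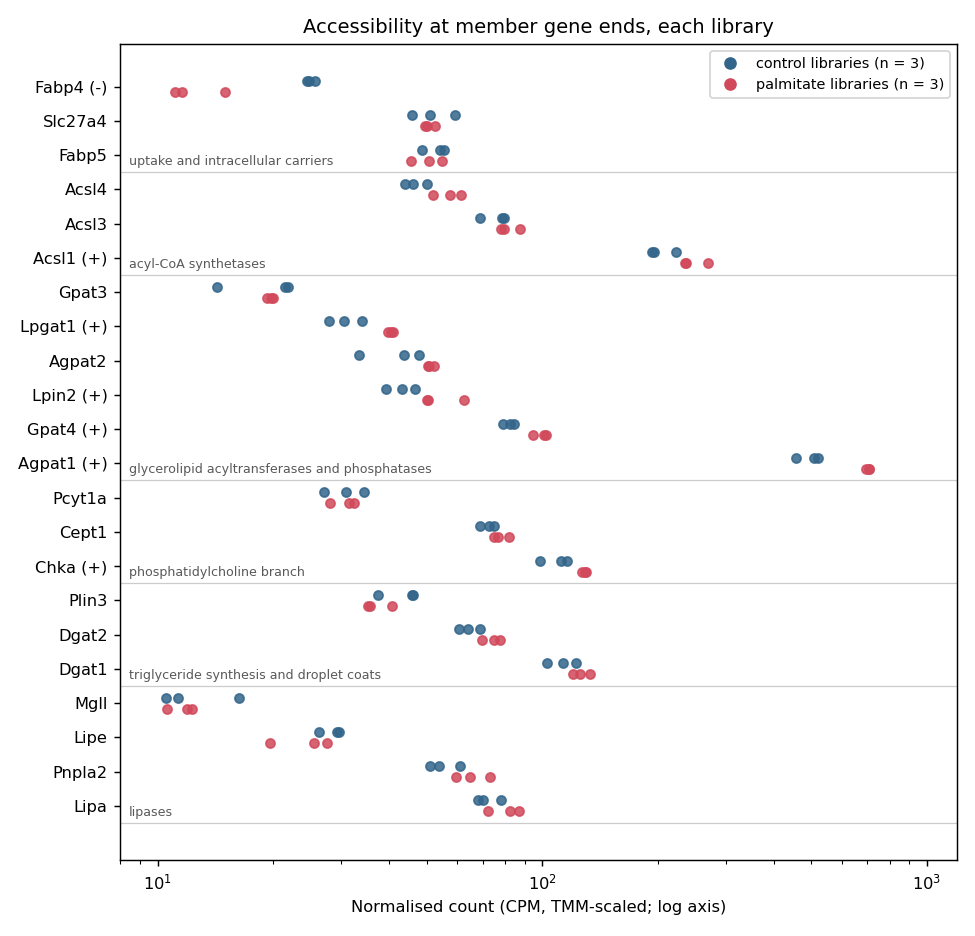
Normalised count (CPM, log axis) at the gene-end region of each of the 22 genes, grouped by role, with 1 point per library, 3 control (blue) and 3 palmitate (red); + and - mark the genes called higher and lower. The 3 palmitate points of Fabp4 (11.1 to 15 CPM) lie left of its controls (24.4 to 25.6 CPM), and those of Agpat1 (694 to 708 CPM) lie right of its controls (457 to 520 CPM).

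Strong gene ends rose more than weak ones throughout the matrix, so each gene was read against ends of like strength. With all gene ends split into 5 equal classes of mean abundance, the share called higher was 1.28% in the weakest class (3.61 to 19.3 CPM), then 3.46%, 11.4% and 35.5%, and 73.6% in the strongest (110 to 863 CPM). The share called lower ran from 7.92% in the weakest class through 2.82%, 1.01% and 0.372% to 0.213% in the strongest. The median log2 fold change of the classes went from -0.13 to 0.28. Among the 22 genes, 3 of the 4 in the strongest class rose (Agpat1, Acsl1 and Chka, and not Dgat1), and 1 of 5 in the next (Gpat4). In the middle class 1 of 7 rose (Lpin2), in the class below it 1 of 5 rose (Lpgat1) and 1 fell (Fabp4), and the 1 gene of the weakest class (Mgll) did not pass. Across the 22 ends the fold change correlated with mean log abundance (Pearson's r = 0.60, Spearman's rho = 0.53, a description over genes that share the 6 libraries).

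A second scaling, trended offsets, aims to remove such a trend. It replaces the single factor by a smooth curve of each library's counts on the strength of all tested regions. With it 2.69% of gene ends were called higher and 1.42% lower, and the median over all gene ends was 0.05. A smaller trend in the opposite direction was left at gene ends. The class medians went from 0.16 in the weakest class through 0.12, 0.06 and 0.03 to 0.01 in the strongest. Of the 22 genes, 0 were then called higher and 1 lower, Fabp4, and their median was 0.04. The correlation with strength was r = 0.14 (rho = -0.08, n = 22). With libraries scaled by their total counts, 1 was called higher (Agpat1) and 1 lower. That scaling moved the median of all regions from -0.05 to -0.16. With the DESeq2 Wald test 2 were called higher, Agpat1 and Acsl1. For total counts and the Wald test no share over all gene ends is given here, so these counts have no background beside them. The 6 calls thus depended on the scaling, and the fold changes did so to different degrees, from 0.40 with both TMM and trended offsets at Lpgat1 to 0.28 and -0.02 at Acsl1. The call of Fabp4 held under each of the scalings run.

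**Figure D2:**
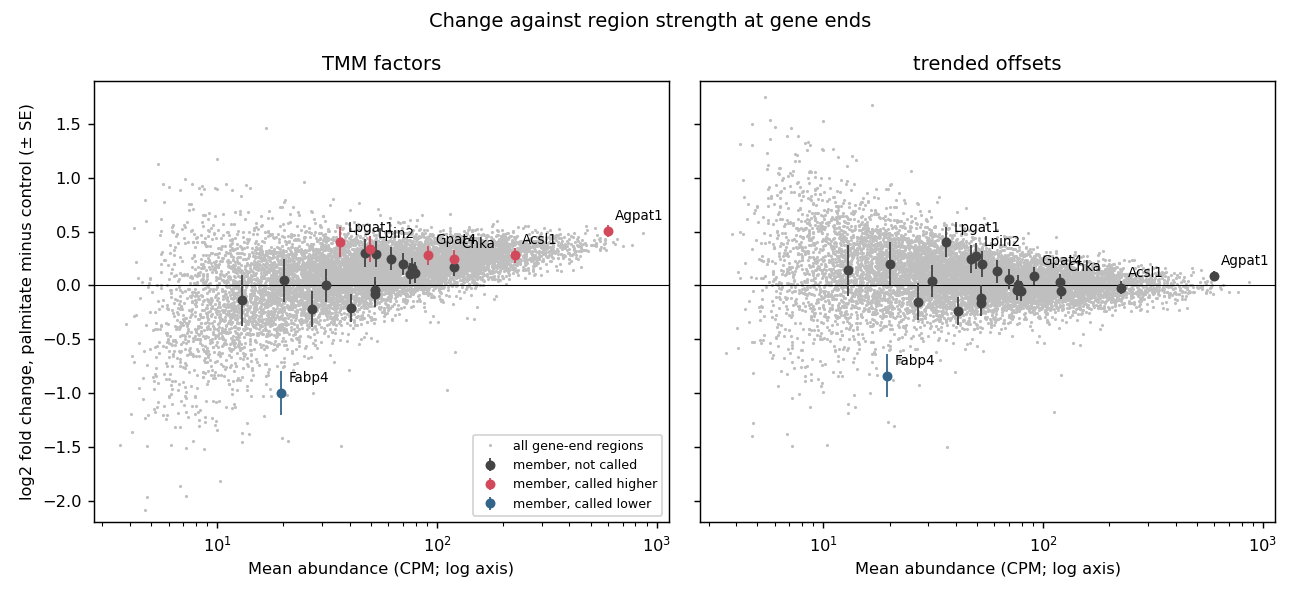
Log2 fold change (palmitate minus control) against mean abundance (CPM, log axis) at all 9408 tested gene ends (grey) and the 22 genes (large points, bars ± SE), with TMM factors (left) and trended offsets (right). The grey cloud climbs to the right on the left panel. On the right panel its median falls slightly, from 0.16 in the weakest class to 0.01 in the strongest. Between the panels Agpat1 moves from 0.51 to 0.09 and Fabp4 from -1.0 to -0.84.

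The carriers gave the 1 fall. Fabp4 encodes a cytosolic fatty acid-binding protein best known from adipocytes and macrophages. Its region (chr3:10204938-10205814) lies inside the gene, 596 bp from an end of the span, and the tables used here give no strand for Fabp4, so that end is not named as start or stop. The 3 control libraries had 24.4, 25.6 and 24.8 CPM and the 3 palmitate libraries 15, 11.6 and 11.1 CPM. The palmitate libraries all lay below the controls, and the means were 24.9 ± 0.619 and 12.6 ± 2.11 CPM (SD, n = 3 each). The log2 fold change was -1.0 ± 0.20 (SE, adjusted p = 0.000487). Of the 200 gene ends nearest to it in strength 5% were called lower, and 0.5% had a more negative fold change. Among all tested regions deeper inside genes, of any strength, 19.6% were called lower. The authors' peak lists held a peak near the end in 3 control lists and 1 palmitate list. With trended offsets the change was -0.84 (adjusted p = 0.00931), and it passed all 15 alternatives of scaling, filter, test and library. Only with trended offsets and a library left out together did it miss, without control 3 or palmitate 3 (adjusted p up to 0.061).

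The neighbouring family member Fabp5, the binding protein usual in lymphocytes, had levels of 48.8 to 55.4 CPM in control and 45.5 to 54.8 CPM in palmitate, which overlapped (log2 fold change -0.08, adjusted p = 0.672). Slc27a4, a fatty acid transport protein that also activates its substrates, had 45.8 to 59.2 and 49.5 to 52.7 CPM (-0.04, adjusted p = 0.834). Neither passed the test.

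Of the 3 acyl-CoA synthetases with a gene-end region, 1 rose. Acsl1, a long-chain synthetase known for directing fatty acids to triglyceride and oxidation, was open at its start (chr8:46470669-46471305) at 193, 195 and 222 CPM in control and 237, 270 and 235 CPM in palmitate libraries. The groups did not overlap, and palmitate 2 was the highest. The log2 fold change was 0.28 ± 0.071 (adjusted p = 0.00374), but 88% of the 200 ends of like strength were also called higher and 47% of them had a smaller change. With trended offsets the sign turned (-0.02, adjusted p = 0.917), and without palmitate 2 the adjusted p was 0.0508. Acsl4, which prefers arachidonate, had 46.2, 43.9 and 50 CPM in control against 52, 57.4 and 61.4 CPM in palmitate (chrX:142390103-142390857). These did not overlap, yet the change of 0.29 ± 0.12 did not pass (adjusted p = 0.0679). Acsl3, a synthetase of nascent lipid droplets whose region is shared with Utp14b, had 69 to 79.3 and 78 to 87.3 CPM (0.12, adjusted p = 0.395).

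The glycerolipid acyltransferases and phosphatases, most of which build phosphatidate and diacylglycerol, held 4 of the 6 rises. All 6 of those with a gene-end region had a fold change above 0, as did 71.8% of all gene ends, with a median of 0.32. With trended offsets all 6 were again above 0, as were 62.4% of all gene ends, with a median of 0.22 and 0 called. The 2 that did not pass were Agpat2 and Gpat3. With those offsets the 6 changes ran from 0.09 to 0.40, against the median of 0.05 over all gene ends. For ends of like strength the median was 0.00 at Agpat1, 0.05 at Gpat4, 0.06 at Agpat2, Lpin2 and Lpgat1, and 0.14 at Gpat3. Each of the 6 lay above its median. Gpat4 (0.09 ± 0.084 SE) and Gpat3 (0.20 ± 0.2 SE) did so by less than their standard error.

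Agpat1, which adds the second acyl chain to make phosphatidate, had the strongest end of the 22 and the largest rise among them. Its region (chr17:34603480-34604404) had 520, 457 and 509 CPM in control and 708, 694 and 705 CPM in palmitate libraries, a rise from 495 ± 33.6 to 702 ± 7.63 CPM (mean ± SD, n = 3 each). The palmitate libraries lay close together and far above all 3 controls. The log2 fold change was 0.51 ± 0.056 (adjusted p = 4.69e-07). Among the 200 ends of like strength 98% were called higher, with a median of 0.37, and 97% had a smaller change than Agpat1. The region covers the start of the Agpat1 span but is shared with the neighbouring gene Rnf5, and it lies 1457 bp from the nearest Agpat1 start in the promoter table. With trended offsets the change was 0.09 (adjusted p = 0.204).

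A second Agpat1 region, counted among those inside genes, sat on that annotated start (chr17:34605749-34605911) and belonged to no other gene. It is shown by 30 bases before the start that lie within it (chr17:34605813-34605842, plus strand), which hold the reverse complement of CCAAT in capitals.
Agpat1: ctctgaagaggcgATTGGcgaggcccgctg
There the control libraries had 49.7, 42.3 and 51 CPM and the palmitate libraries 69.4, 72.4 and 79.4 CPM. The groups stood apart, with means of 47.6 ± 4.71 and 73.7 ± 5.13 CPM (SD, n = 3 each). The log2 fold change of 0.63 ± 0.11 (adjusted p = 9.53e-05) passed all 15 alternatives. It also passed with trended offsets (0.52, adjusted p = 0.0035) and with those offsets and any 1 library left out (adjusted p at most 0.035). Only 1 control and 2 palmitate peak lists held a peak in this narrow region.

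Gpat4, a glycerol-3-phosphate acyltransferase of the endoplasmic reticulum and droplets, rose from 78.9, 82.2 and 84.3 CPM to 94.6, 101 and 102 CPM (chr8:23208174-23208899). The groups did not overlap, and the change was 0.28 ± 0.086 (adjusted p = 0.018) where 47% of ends of like strength were called higher. Leaving out control 1, palmitate 2 or palmitate 3 ended the call (adjusted p up to 0.0682). Gpat3, its paralog, whose region is shared with Abraxas1, had 14.3 to 21.8 and 19.2 to 20 CPM with overlap (0.05, adjusted p = 0.887).

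Lpgat1, a lysophospholipid acyltransferase, rose at an end of modest strength. Its start region (chr1:191717845-191718395) had 34, 30.6 and 27.9 CPM in control and 39.8, 40.4 and 41 CPM in palmitate libraries, without overlap. The log2 fold change was 0.40 ± 0.14 (adjusted p = 0.034), and 7.5% of ends of like strength were called higher while 93% had a smaller change. With trended offsets it remained 0.40 and no longer passed (adjusted p = 0.0757), and it missed with at least 20 reads in 3 libraries and without control 3 or any 1 palmitate library (adjusted p up to 0.115).

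Lpin2, a phosphatidate phosphatase, had 39.2, 43.3 and 46.6 CPM in control and 50.5, 62.5 and 50.2 CPM in palmitate libraries (chr17:71183222-71183804). Palmitate 2 was well above the other two palmitate libraries, which in turn were above all controls. The change was 0.34 ± 0.12 (adjusted p = 0.0428), with 11% of ends of like strength called higher, and the adjusted p reached 0.28 without palmitate 2. It also missed without control 1, control 2 or palmitate 3, with at least 20 reads in 3 libraries and with limma-voom. Agpat2, the paralog of Agpat1 needed in fat tissue, had 43.6, 33.3 and 47.9 CPM against 50.5, 52.3 and 50.6 CPM (chr2:26603762-26604504). Control 2 was low, the groups did not overlap, and the change of 0.30 ± 0.13 did not pass (adjusted p = 0.0847).

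In the phosphatidylcholine branch 1 of 3 ends rose. Chka, the choline kinase of the first step, had 112, 98.5 and 116 CPM in control and 127, 129 and 130 CPM in palmitate libraries (chr19:3851376-3852050). The palmitate libraries lay within a narrow band above all controls, and control 2 was the lowest. The change of 0.25 ± 0.080 (adjusted p = 0.0231) was close to the 0.22 median of ends of like strength, 51.5% of which were called higher. Leaving out control 2, palmitate 2 or palmitate 3 ended it (adjusted p up to 0.111). Pcyt1a, the rate-setting enzyme of this branch, had 27 to 34.4 and 28 to 32.3 CPM (0.00, adjusted p = 0.992). Cept1, which joins choline or ethanolamine to diacylglycerol and shares its region with Dram2, had 69 to 74.9 and 75.1 to 81.7 CPM (0.11, adjusted p = 0.411).

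No gene of triglyceride synthesis and droplet coats passed. Dgat2, which finishes triglyceride, had 64.1, 60.9 and 68.7 CPM in control and 69.8, 75.1 and 77.5 CPM in palmitate libraries (chr7:99182539-99183113). These did not overlap, with a change of 0.20 ± 0.099 (adjusted p = 0.138). Dgat1, the other enzyme of this step, was the 1 member of the strongest class not called, at 103 to 122 and 120 to 133 CPM with overlap (0.17, adjusted p = 0.132). Plin3, a droplet coat protein, went the other way at 46.2, 45.9 and 37.4 CPM against 40.6, 35.7 and 35.3 CPM (chr17:56290942-56291451). The groups overlapped (-0.21 ± 0.13, adjusted p = 0.257).

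No lipase passed either. Pnpla2, the first lipase of triglyceride breakdown, had 54, 51.2 and 61.2 CPM in control and 59.5, 64.9 and 73.2 CPM in palmitate libraries at its start (chr7:141454986-141455723), with overlap (0.25 ± 0.11, adjusted p = 0.1). Lipe, the hormone-sensitive lipase, had 29.2, 29.6 and 26.2 CPM against 27.6, 25.5 and 19.6 CPM (-0.22 ± 0.17, adjusted p = 0.352). Its gene-end region (chr7:25379708-25380387) lies 9725 bp from the nearest annotated start, at the far end of the gene. Lipa, the lysosomal acid lipase, had 68 to 78.2 and 72.1 to 87 CPM (0.16, adjusted p = 0.247). Mgll, the monoacylglycerol lipase, had the weakest end of the 22, at 10.5 to 16.3 and 10.6 to 12.3 CPM (-0.14, adjusted p = 0.715).

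Inside the genes the balance was the reverse. Of the 23 regions 6 fell, 1 rose (the Agpat1 start above) and 16 did not pass, against 19.6% lower and 4.3% higher among all 8694 tested regions inside genes. The median log2 fold change was -0.26, and -0.24 over all of them. With trended offsets 4 were lower and 1 higher, against 6.04% and 2.14%. The regions that fell were in Mgll, Acsl5, Lipe, Lpin1 and, with 2, Agpat3. With the DESeq2 Wald test 2 fell, those in Mgll and Acsl5, and the share of all inside regions is not given for that test.

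The largest change lay in Mgll, 32243 bp from its nearest annotated start (chr6:88756947-88757326). The control libraries had 24, 16.3 and 22.1 CPM and the palmitate libraries 5.91, 6.46 and 6.52 CPM, so that every control stood far above every palmitate library. The means were 20.8 ± 4 and 6.3 ± 0.333 CPM (SD, n = 3 each), 3.26-fold apart, with a log2 fold change of -1.70 ± 0.25 (adjusted p = 1.34e-05). It passed all 15 alternatives, and with trended offsets (-1.46, adjusted p = 0.000476) it passed without any 1 library (adjusted p at most 0.0124). Peaks were listed there in 3 control lists and 1 palmitate list. The other 2 regions inside Mgll did not pass (-0.26, adjusted p = 0.421, and -0.06, adjusted p = 0.9), and nor did its start.

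Acsl5, a synthetase of mitochondria and endoplasmic reticulum, had its 1 region 921 bp from the annotated start (chr19:55254290-55254862). It had 33.1, 23.6 and 23.8 CPM in control and 17.3, 13.9 and 13.8 CPM in palmitate libraries, without overlap, control 1 being the highest. The change was -0.82 ± 0.20 (adjusted p = 0.00248) and passed all 15 alternatives. With trended offsets it was -0.69 (adjusted p = 0.0301) and was lost when control 1, control 3, palmitate 2 or palmitate 3 was left out as well (adjusted p up to 0.205).

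Agpat3, a further acyltransferase of phosphatidate synthesis, had 2 regions, and both fell. The stronger (chr10:78297914-78299116) had 127, 131 and 119 CPM in control and 94.2, 110 and 112 CPM in palmitate libraries, without overlap (-0.25 ± 0.083, adjusted p = 0.0266). The call was lost without palmitate 1 or any 1 control (adjusted p up to 0.176), and also with DESeq2 size factors. With trended offsets the fall was larger, at -0.46 (adjusted p = 0.000497), and passed without any 1 library (adjusted p at most 0.00795). The weaker (chr10:78303791-78304046) had 27.9, 27.6 and 23.8 CPM against 12.6, 19 and 17.6 CPM (-0.67 ± 0.19, adjusted p = 0.00919). It did not pass with trended offsets (-0.55, adjusted p = 0.0752) or without palmitate 1 (adjusted p = 0.07).

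Lpin1, the phosphatidate phosphatase paralogous to Lpin2, had 4 regions inside, of which 1 fell (chr12:16591515-16591805). It had 55.8, 50.2 and 53.4 CPM in control and 45.7, 38.4 and 39.5 CPM in palmitate libraries, without overlap (-0.37 ± 0.12, adjusted p = 0.0257; trended -0.43, adjusted p = 0.0304). Leaving out control 1, control 3, palmitate 2 or palmitate 3 ended the call (adjusted p up to 0.117). In Lipe the region at chr7:25386187-25386688 had 16.1, 11.6 and 13.9 CPM against 7.1, 6.12 and 8.44 CPM (-0.94 ± 0.26, adjusted p = 0.00894). It did not pass with trended offsets (-0.62, adjusted p = 0.152) or without palmitate 2 (adjusted p = 0.0522). In both regions the groups did not overlap.

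**Figure D3:**
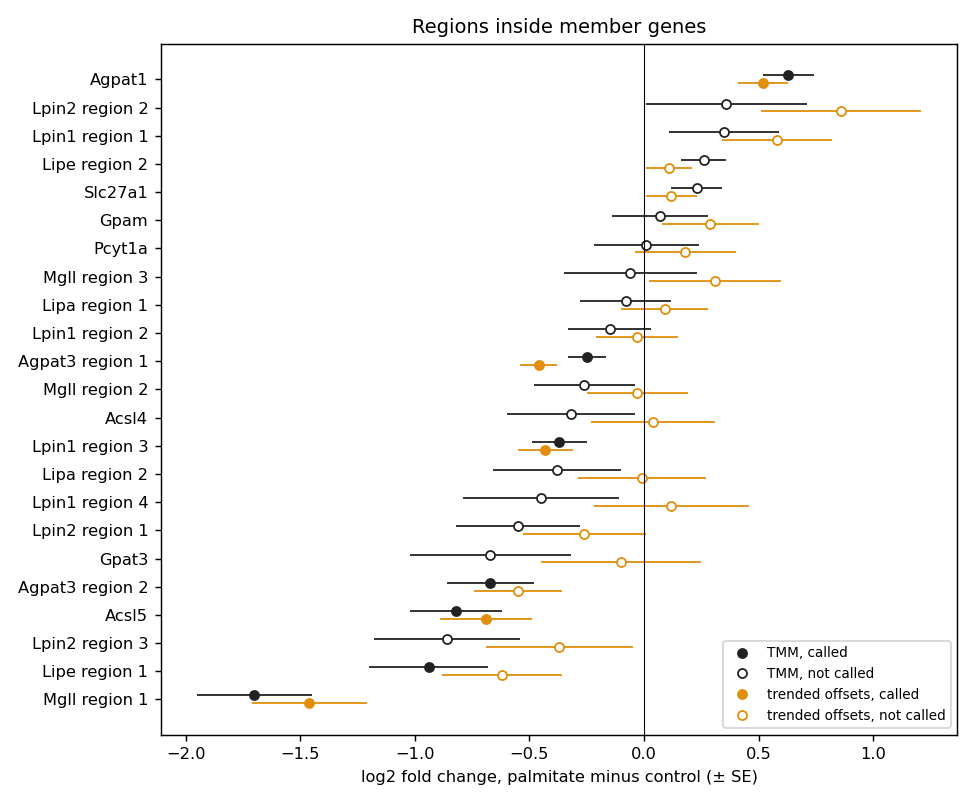
Log2 fold change (palmitate minus control, bars ± SE) of the 23 regions inside 13 genes, with TMM factors (black) and trended offsets (orange); filled points passed the test and regions of a gene are numbered by coordinate. Mgll region 1 lies furthest left at -1.70 and -1.46, and Agpat1 is the 1 region called higher with either scaling.

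Other annotated starts also fell among the inside regions because the gene span reaches further out. At the start of Lipe (chr7:25395434-25396349) levels were 58.8 to 74.9 CPM in control and 72.5 to 86.3 CPM in palmitate (0.26, adjusted p = 0.058). Slc27a1, a transport protein, had 52.7 to 60.6 and 62.1 to 71.4 CPM (0.23, adjusted p = 0.107) in a region 1066 bp from the span's end, just beyond the 1 kb limit. Gpam had 14 to 16.7 and 14.6 to 16.6 CPM at a downstream start (0.07, adjusted p = 0.834). An internal start of Lpin2 had 7.48 to 8.28 and 3.4 to 5.52 CPM (-0.86, adjusted p = 0.0503). None of these 4 passed, though the Lipe start passed in 3 of the 15 alternatives and the internal Lpin2 start in 2.

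**Figure D4:**
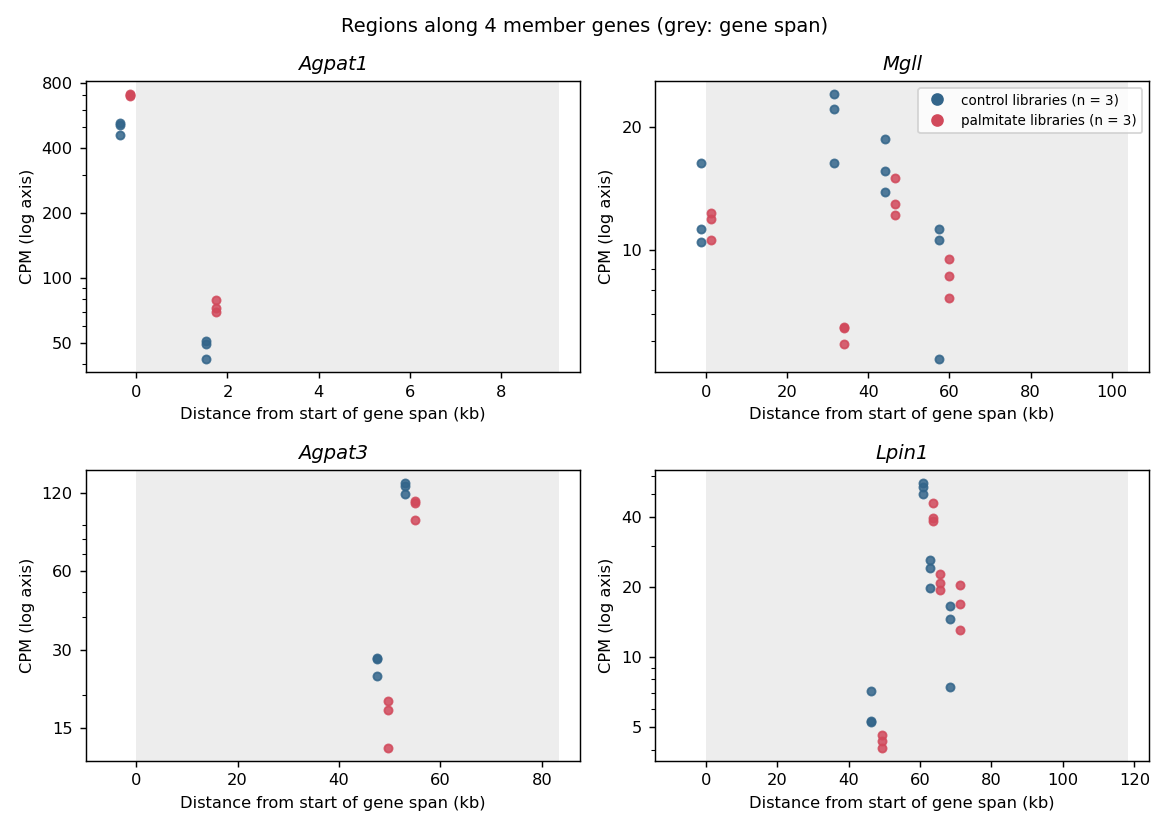
Normalised count (CPM, log axis) of every region in Agpat1, Mgll, Agpat3 and Lpin1 against the distance of its centre from the start of the gene span (kb, grey span), 1 point per library, with control (blue) drawn slightly left and palmitate (red) slightly right. Both Agpat1 regions are higher in palmitate libraries, and the first inside region of Mgll is at 16.3 to 24 CPM in control and 5.91 to 6.52 CPM in palmitate.

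Between genes, 15 regions lay within 50 kb of a member with that member's end as the nearest gene end, a group added after the values had been seen. Of these 4 fell and 0 rose, against 18.4% lower and 2.66% higher among all 6214 tested intergenic regions. The 4 lay 4468 bp from Fabp4 (-0.96, adjusted p = 0.0199), 9741 bp from Mgll (-0.90, adjusted p = 0.0301), 37737 bp from Fabp5 (-0.93, adjusted p = 0.0306) and 9109 bp from Acsl6 (-0.87, adjusted p = 0.0317). All were weak, with control means of 10.2 to 11.7 CPM, and the Fabp5 region overlapped between groups. With trended offsets none of the 4 passed, against 5.71% lower and 1.93% higher of all, and 1 of the 15 was called higher. That region, 20829 bp from Lpin2, had 3.05, 2.33 and 2.38 CPM in control and 3.94, 5.1 and 6.14 CPM in palmitate libraries (trended 1.70, adjusted p = 0.00823; TMM 0.98, adjusted p = 0.0682). It held only 7 reads in each control library and 10, 15 and 16 reads in the palmitate libraries, with a peak in 0 control and 2 palmitate lists. The larger trended value thus comes from the offsets at few reads. The trended call of this region was lost without control 3 or palmitate 3. Each of the 4 falls was also lost when single libraries were left out, and the count of falls ran from 1 to 3. Cd36, Vldlr and Slc27a2 had no such region, and the 2 of Plin2 did not pass.

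The wider lipid pathway moved like the gene ends at large. Of 128 further genes of the same steps 127 were matched and 84 had a tested gene-end region. Of these 20 rose, 4 fell and 60 did not pass, with a median of 0.14, against the 25% and 2.47% of all gene ends. The rises again lay at strong ends, 11 of 17 in the strongest class and 7 of 23 in the next. By role they were 5 of 9 lipases, 5 of 23 genes of phospholipid synthesis and remodelling, 3 of 11 droplet proteins, 3 of 9 genes around acyl-CoA and glycerol phosphate and 2 of 6 diacylglycerol kinases. A rise was also called at 1 of 12 genes of the glycerolipid steps and 1 of 14 carriers. With total counts 7 rose and 6 fell, and with trended offsets 2 rose (Pgs1 and Plpp2) and 2 fell (Soat2 and Ubxn4). The share of all gene ends is not given for total counts.

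The 4 largest rises among the genes called with TMM were at Pgs1, the synthase that opens the cardiolipin branch, Ptdss1 (phosphatidylserine synthase, its region shared with Mterf3), Dgkd (diacylglycerol kinase delta) and Etnk1 (ethanolamine kinase). Pgs1 had 17, 23.3 and 20.1 CPM in control and 27.2, 29.2 and 30.3 CPM in palmitate libraries, without overlap (0.51, adjusted p = 0.0282). It also passed with trended offsets (0.60, adjusted p = 0.0302), and missed with total counts, with the DESeq2 Wald test, and when control 1, control 3, palmitate 2 or palmitate 3 was left out. Ptdss1 rose from 73.2 ± 7.24 to 100 ± 9.23 CPM (SD, n = 3 each; 0.45, adjusted p = 0.000903). Etnk1 rose from 241 ± 27.4 to 323 ± 8.3 CPM (0.41, adjusted p = 5.35e-05). Dgkd rose from 47.1 ± 7.25 to 63.4 ± 7.58 CPM (0.41, adjusted p = 0.0119) and was lost without control 1 or palmitate 1. With trended offsets Ptdss1 (0.27, adjusted p = 0.0816), Etnk1 (0.08, adjusted p = 0.492) and Dgkd (0.32, adjusted p = 0.113) did not pass. A larger fold change that did not pass with TMM, singled out after its value was seen, was at Plpp2, a lipid phosphate phosphatase with 9.15, 4.99 and 5.78 CPM in control and 11, 10.9 and 9.2 CPM in palmitate libraries (0.67, adjusted p = 0.086). It passed with trended offsets (1.06, adjusted p = 0.0235), and then missed without control 2, control 3 or any 1 palmitate library.

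The 4 falls were Soat2, Pnpla3, Mfsd2a and Agpat4. Soat2, which makes cholesteryl esters and whose region is shared with Igfbp6, had 31.8, 35.6 and 37.4 CPM in control and 18.5, 18.7 and 15.3 CPM in palmitate libraries, about as large a fall as that of Fabp4. The groups stood apart (-1.0, adjusted p = 6.85e-05), and the call held in all 15 alternatives and with trended offsets (-0.93, adjusted p = 0.000878). Pnpla3, a droplet lipase and remodelling enzyme, had 22.7, 16 and 24.5 CPM against 16.9, 10.9 and 7.67 CPM, with overlap (-0.83, adjusted p = 0.0113). Mfsd2a, a carrier of lysophosphatidylcholine, fell from 20.8 ± 1.1 to 13.8 ± 2.72 CPM (-0.60, adjusted p = 0.0326), and Agpat4 from 46.4 ± 4.97 to 34.9 ± 3.65 CPM (-0.40, adjusted p = 0.0291). With trended offsets Pnpla3 (-0.64, adjusted p = 0.108), Mfsd2a (-0.41, adjusted p = 0.231) and Agpat4 (-0.42, adjusted p = 0.0522) did not pass. Each of the 3 also missed when single libraries were left out, palmitate 3 among them in every case.

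**Figure D5:**
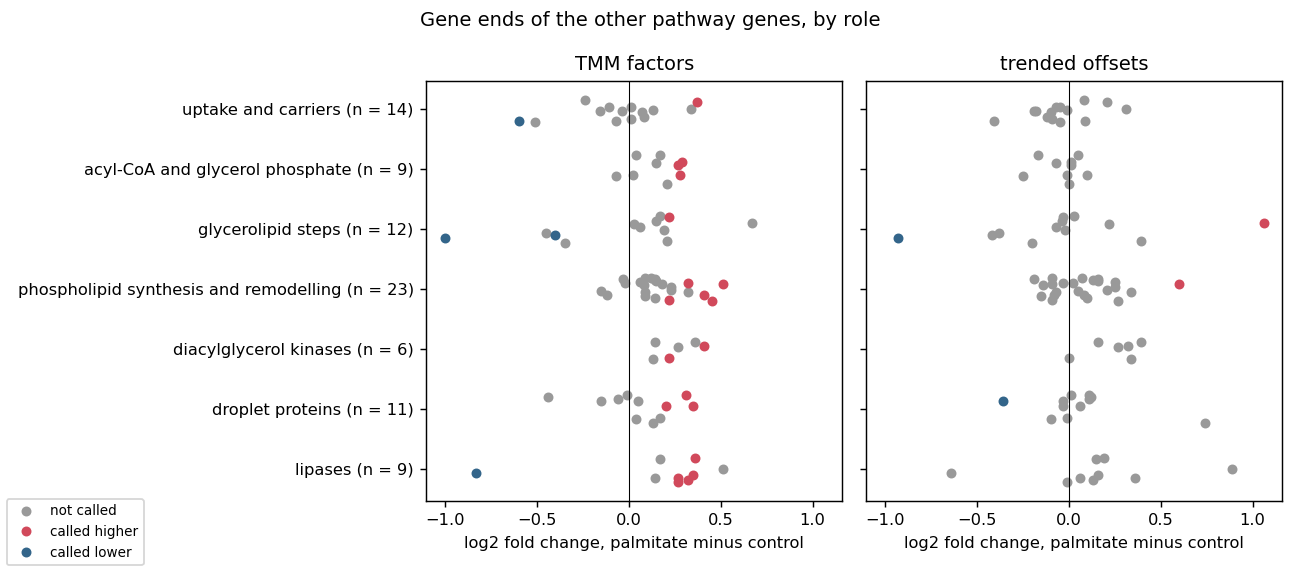
Log2 fold change (palmitate minus control) at the gene ends of the 84 other pathway genes, by role, with TMM factors (left) and trended offsets (right); points are genes and are spread vertically only to separate them. On the left 20 are called higher (red) and 4 lower (blue), on the right 2 of each.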

How the data were processed

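ATAC-seq was analysed in 6 libraries, 3 control and 3 palmitate. Per the submitters' processing notes, edgeR 3.40.2, MACS2 2.2.8, Picard 2.23.8, Bowtie2 2.5.1, Trim Galore 0.6.10 and the build mm10 were used; how reads were shifted to the Tn5 cut, merged into regions and counted is not given in the sources used here. Raw counts in 24605 regions were deposited by the authors. The peak lists deposited by the authors carry a score per peak, the authors' own, and were used only for whether a peak was listed.

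The quasi-likelihood F-test of edgeR 4.0.16 (R 4.3.3, two-sided, TMM factors, Benjamini-Hochberg at 0.05) was fitted on the whole matrix. The filter filterByExpr removed 289 regions and left 24316. The code was also run on simulated counts, whose outcome is not given here. Those counts held no shift with region strength between groups, so that run cannot judge calls that depend on the scaling. The common biological coefficient of variation was 0.0659. Each standard error was taken as |log2 fold change| over the root of its F statistic. Region classes used 21900 protein-coding genes of GRCm38.p6. Trended offsets used loess (span 0.3, 0.5 reads added before the log). The 15 alternatives counted for a single region were DESeq2 size factors, total counts, trended offsets, no filter, at least 20 reads in 3 libraries, the DESeq2 Wald test (1.42.0), limma-voom (3.58.1), a replicate block with and without trended offsets, and each library left out. The whole-count results were also run at a false discovery rate of 0.1, 2.5 kb, annotated starts only and summed rows.

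The members and gene lists were chosen with earlier results of these data known. All 32 members are named; values per library are given for those called and for the 6 others with the largest absolute change. Of the other pathway genes called with TMM, the 4 with the largest change per direction are named, and of the inside regions those called. Trended offsets with a library left out, the 200 ends of like strength and the intergenic regions were chosen after seeing the data. Replicate numbers were not taken as pairs, because the labels do not say what they stand for.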

Additional observations from a re-analysis of the deposited data

How the results depend on the processing

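Of the counts of calls, the 6 members called higher became 1 with total counts, 0 with trended offsets, 0 with the replicate block and trended offsets, and 2 with the DESeq2 Wald test, and ran from 1 to 6 with a library left out (1 without palmitate 2, 2 without palmitate 3). The 6 without control 3 held Agpat2 in place of Lpgat1, so no library left out kept the same 6. Lpgat1 and Lpin2 also missed with at least 20 reads in 3 libraries, and Lpin2 with limma-voom. The 1 lower became 2 at 2.5 kb, where Acsl5 enters. With annotated starts only it was also 1, which was Acsl5, since Fabp4 has no start in the table. The 20 other pathway genes called higher became 7 with total counts, 2 with trended offsets, 2 with block and trended offsets and 13 with the Wald test, and ran from 13 to 18 with a library left out (13 without palmitate 2 or palmitate 3). The 4 lower became 2, 2 and 1 (trended, block and trended, Wald) and ran from 1 (without palmitate 3) to 4, with 2 without control 3. Of inside regions, the 1 higher became 2 with DESeq2 size factors or a false discovery rate of 0.1. It ran from 1 to 2 with a library left out (2 without control 2 or palmitate 3). The 6 lower became 2 with the Wald test. Of these 6, only the falls in Mgll and Acsl5 held whichever library was left out. Intergenic regions near members went from 4 lower and 0 higher to 0 and 1 with trended offsets, with or without the block, to 0 lower with the Wald test, and to 1 to 3 lower with a library left out. The cause was not tested. Shares over all regions of a class are given only for TMM and trended offsets, so counts with the other settings have no background.

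Same-numbered libraries did not deviate together (correlations 0.00045, -0.104 and -0.027), and the numbers are not taken as pairs. These values cannot show whether same-numbered libraries share an animal or culture. With the replicate block alone 6 members were called higher and 1 lower, 18 and 4 of the other genes, and 1 and 6 of the inside regions.

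Signs turned at 8 members. With trended offsets, and equally with the block added, Acsl1, called higher at 0.28 with TMM, was -0.02, Acsl3 -0.05, Cept1 -0.04 and Dgat1 -0.05, and Mgll was 0.14 and 0.16. With total counts Gpat3 was -0.07, Pcyt1a -0.11 and Cept1 just below 0 (0.00), and with at least 20 reads Pcyt1a was -0.03. Leaving out a library gave -0.13 to 0.19 for Gpat3, -0.08 to 0.08 for Pcyt1a, -0.25 to 0.11 for Mgll and -0.11 to 0.09 for Slc27a4. Over the 22 member ends, the 7 called inside regions and the 8 named other genes, 470 values kept sign and side of the threshold, 99 kept the sign but no longer passed, 2 newly passed and 20 turned sign. At this depth weak regions rest on few reads, and changes of more than 2 standard errors could miss the threshold there, as at the internal Lpin2 start (-0.86 ± 0.32, adjusted p = 0.0503).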
